A study of Drosophila melanogaster with 6 samples.

Results

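The genes described here are CG14852, CG14851, CG11300, CG10853, CG9702, CG7443 and CG17134 of Drosophila melanogaster, 7 of the 11982 genes that have a probe set naming them alone on the array. They have no given name, and their symbols are annotation numbers. They were chosen by their log2 difference between Sage and control arrays, among the largest of the series, so that difference is a description here and carries no test. Each gene had 1 probe set, and these held ranks 1, 2, 3, 6, 10, 11 and 14 by difference among the 13647 probe sets that name 1 gene. The working label of the group calls them secreted-type. Protein sequences were not used here, so secretion was not checked for any of the 7.

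The study measured RNA of whole embryos of stages 11 to 16 on Affymetrix 3' expression arrays. The 3 Sage samples carried a UAS-Sage transgene under tub-Gal4, and the 3 control samples carried tub-Gal4 alone. Per the labels, all embryos developed at 25 C and passed through a COPAS biosorter before extraction. The driver was thus present in both groups, and Gal4 made from the tubulin promoter is active in most cells, not only in the tissue that normally makes Sage. The labels do not state whether replicates were collected from separate embryo batches, so a p-value here reflects no more than the spread among the 6 samples, part of which may be technical.

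Sage belongs to the basic helix-loop-helix transcription factors and works in the embryonic salivary gland together with the forkhead factor Fkh. The salivary gland is a pair of secretory tubes whose cells stop dividing early and later make large amounts of secreted protein, among them the glue that fixes the pupa to its support. Proteins bound for secretion enter the endoplasmic reticulum through an N-terminal signal peptide, pass through the Golgi and are often modified on the way by enzymes and transporters of the same pathway.

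The arrays of the series differed in ways that the groups do not explain. Pearson's r across the tested probe sets (no independent replicates of each other) was 0.989 to 0.996 between Sage arrays and 0.938 to 0.987 between control arrays. With the Sage arrays, r was 0.962 to 0.972 for control replicate 1 and 0.895 to 0.904 for control replicate 3. Hybridisation control RNAs, which do not come from the embryo, also separated the groups, with BioB 1.36 log2 units higher on the Sage arrays, so for the genes below a difference in handling and the effect of genotype cannot be told apart. In whole embryos, more cells that make a transcript and more transcript per cell cannot be told apart either.

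The sage transcript itself was high in all 3 samples labelled as overexpressing it. Its log2 signals were 12.39, 12.53 and 12.50 on the Sage arrays, against 7.38, 7.50 and 7.66 on the control arrays. The groups did not overlap, and the labels were borne out on every array. The difference was 4.96 (SE 0.10, adjusted p = 1.96e-05 by limma), and the two-sided exact permutation p was 0.1, the lowest possible with 3 arrays a group. Transcripts of the transgene and of the endogenous gene cannot be told apart on this probe set.

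All 7 genes had every Sage array above every control array, as did 16.6% of the 18769 probe sets tested, while 18.1% had every Sage array below every control array. All 7 also had an adjusted p under 0.05 by limma and were higher with Sage, as did 4.25% of probe sets. Both counts follow from how the genes were chosen. Their mean log2 signals lay between 9.26 and 11.93 with Sage and between 4.56 and 5.97 in the controls, where the array medians were 5.56 to 5.69. Fold changes ran from 22.5 to 77.8. The control means lay above those of 18.2% (CG14851) to 53.5% (CG11300) of all probe sets. No detection calls were used here, so a control signal may be background, and each fold change describes these summarised signals only.

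**Figure D1:**
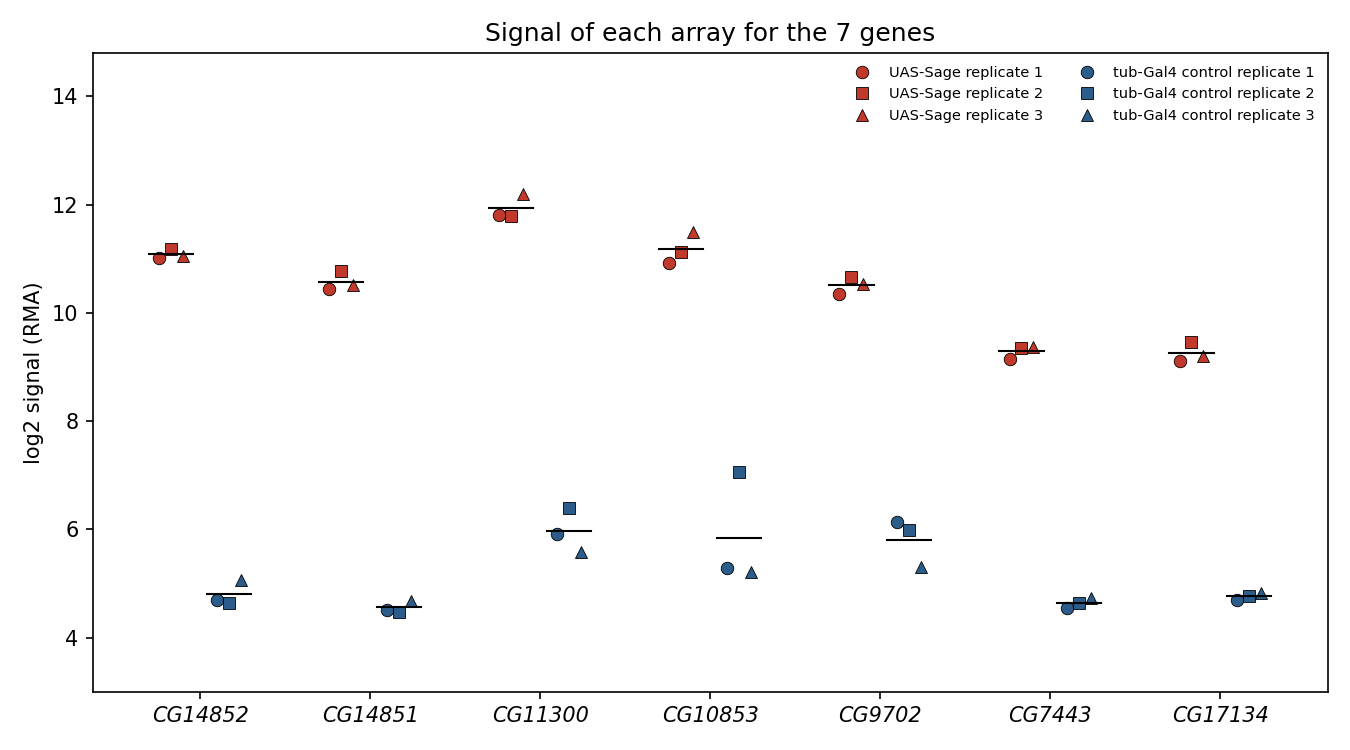
Log2 signal (vertical axis) of each of the 7 genes (horizontal axis) on each array. Red symbols are the 3 UAS-Sage arrays, blue symbols the 3 tub-Gal4 control arrays, symbol shape gives the replicate number and black lines are group means. The closest pair of arrays is that of CG10853, where Sage replicate 1 (10.92) and control replicate 2 (7.05) are 3.87 log2 units apart.

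CG14852 and CG14851 had the largest differences of any named gene, and they lie close together on chromosome arm 3R with a single gene between them. CG14852 had log2 signals of 11.01, 11.19 and 11.05 on the Sage arrays, against 4.70, 4.64 and 5.06 on the control arrays. CG14851 had 10.44, 10.77 and 10.51 on the Sage arrays, against 4.52, 4.48 and 4.68 on the control arrays. Within each gene, the arrays of a group stayed within 0.42 log2 units of each other in the controls, and control replicate 3 was the highest control for both. The differences were 6.28 (SE 0.14) for CG14852 and 6.01 (SE 0.12) for CG14851, or 77.8-fold and 64.6-fold. These values were 0.27 apart, with an SE of 0.09 taken within arrays, since both genes were read on the same 6 arrays. The genes were chosen and ranked by these differences, so this gap is a description and no test. It also compares different probe sets, whose control signals may be background. Whether CG14852 rose more than CG14851 therefore cannot be told from the gap. RefSeq lists both as protein-coding genes with 1 transcript each, and no role is given for either in the annotation used here.

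CG11300 and CG10853 were over 40-fold higher with Sage, and both were highest in control replicate 2 among the controls. CG11300, on chromosome arm 2R, had log2 signals of 11.81, 11.79 and 12.19 on the Sage arrays, against 5.92, 6.39 and 5.59 on the control arrays. Its difference was 5.97 (SE 0.23), or 62.5-fold. CG10853, on 3L, had 10.92, 11.12 and 11.49 on the Sage arrays, against 5.28, 7.05 and 5.21 on the control arrays. One array set the spread of CG10853 in the controls, since replicate 2 stood 1.77 above the next control. The difference of CG10853 was 5.33 (SE 0.52), or 40.2-fold, and it was 5.93 without control replicate 2 and 4.33 with arrays weighted by their quality. Only 2 of all 18769 probe sets were at least 1.5 log2 units above both other controls in control replicate 2, against 201 in control replicate 1 and 89 in control replicate 3. The RefSeq entries of CG11300 and CG10853 each list 1 transcript and carry a synonym that begins with BcDNA:LP, the name of clones from a larval and pupal cDNA library. None of the other 5 genes has such a synonym.

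CG9702, on 3R, differs from the others in what is known of its type. By background knowledge it belongs to the SLC26 family, anion transporters that span the membrane many times, so it is a membrane protein and not a secreted one. Its log2 signals were 10.35, 10.67 and 10.54 on the Sage arrays, against 6.13, 5.99 and 5.30 on the control arrays. Control replicate 3 was the low one, and the difference was 4.71 (SE 0.23), or 26.2-fold. It is also the gene with the most transcripts among the 7, with 3 in RefSeq, and which of them the probe set reads was not checked.

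CG7443 and CG17134 had the smallest differences among the 7 and the smallest control ranges. CG7443, on 3R, had log2 signals of 9.15, 9.36 and 9.36 on the Sage arrays, against 4.56, 4.65 and 4.73 on the control arrays. CG17134, on 2L, had 9.12, 9.46 and 9.20 on the Sage arrays, against 4.70, 4.77 and 4.83 on the control arrays. The control arrays of each gene thus lay within 0.17 log2 units, and the differences were 4.65 (SE 0.10) and 4.49 (SE 0.11), or 25.0-fold and 22.5-fold. CG17134 is by background knowledge an aspartic protease of the pepsin and cathepsin D type, enzymes that act in acid compartments or after secretion. No role of CG7443, which has 2 RefSeq transcripts, is given in the annotation used here.

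In order of difference, the steps between neighbours varied in size against their SE, taken within arrays. CG14852 exceeded CG14851 by 0.57, 0.41 and 0.54 on the Sage arrays, against 0.18, 0.16 and 0.38 on the control arrays, and this step was 3.10 times its SE. The step of 0.15 between CG7443 and CG17134 was 2.04 times its SE, and that of 0.64 between CG11300 and CG10853 was 1.58 times. The steps of 0.05 between CG14851 and CG11300, 0.61 between CG10853 and CG9702 and 0.07 between CG9702 and CG7443 were 0.14, 1.06 and 0.22 times theirs. These ratios describe a ranking by which the genes were chosen and are no test. Each step also compares different probe sets, whose control signals may be background. Among the Sage arrays, replicate 1 was the lowest for 6 of the 7 genes and the highest for none. In the controls the order varied from gene to gene, with replicate 1 lowest for 2 genes, replicate 2 for 2 and replicate 3 for 3.

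The threshold between these genes and the rest was narrow. CG17134, the last of the 7, had a log2 difference of 4.49, and the next genes down were CG11584 at 4.46 and CG13135 at 4.36. CG13135 had 9.61, 9.67 and 9.74 on the Sage arrays, against 5.29, 5.32 and 5.33 on the control arrays. CG11584 had 12.17, 10.99 and 12.34 on the Sage arrays, against 9.98, 7.15 and 4.99 on the control arrays, and it did not pass (adjusted p = 0.0715 by limma). Ranked between the first and last of the 7 were Jhbp14, CAH5, Eig71Ee, Npc2e, sage, Lcp65Ag3 and TwdlB. Jhbp14, a relative of juvenile hormone carrier proteins, and CAH5, a carbonic anhydrase, rose 56.2-fold and 50.8-fold. Eig71Ee, a gene induced by the moulting hormone ecdysone, rose 34.7-fold, and Npc2e, of a family of sterol-binding proteins, 32.0-fold. Lcp65Ag3 and TwdlB, cuticle protein genes, had differences of 4.63 and 4.60 but missed the threshold by limma (adjusted p = 0.119 for Lcp65Ag3 and 0.0789 for TwdlB).

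The cuticle genes in this ranking differed from the 7 in how they varied among the controls. Lcp65Ag3 had log2 signals of 11.41, 11.83 and 12.21 on the Sage arrays, against 10.73, 6.53 and 4.32 on the control arrays. TwdlB had 11.83, 12.09 and 12.36 on the Sage arrays, against 10.62, 6.54 and 5.32 on the control arrays. In both, control replicate 1 came close to the Sage arrays and control replicate 3 was far below. Against control replicate 1 alone, the Sage mean was 1.09 higher for Lcp65Ag3 and 1.47 higher for TwdlB. Of the 7 genes, CG9702 had its controls in the same order, over a range of 0.83, and the other 6 did not. Against control replicate 1 alone, the differences of the 7 were 4.39 (CG9702) to 6.38 (CG14852).

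**Figure D2:**
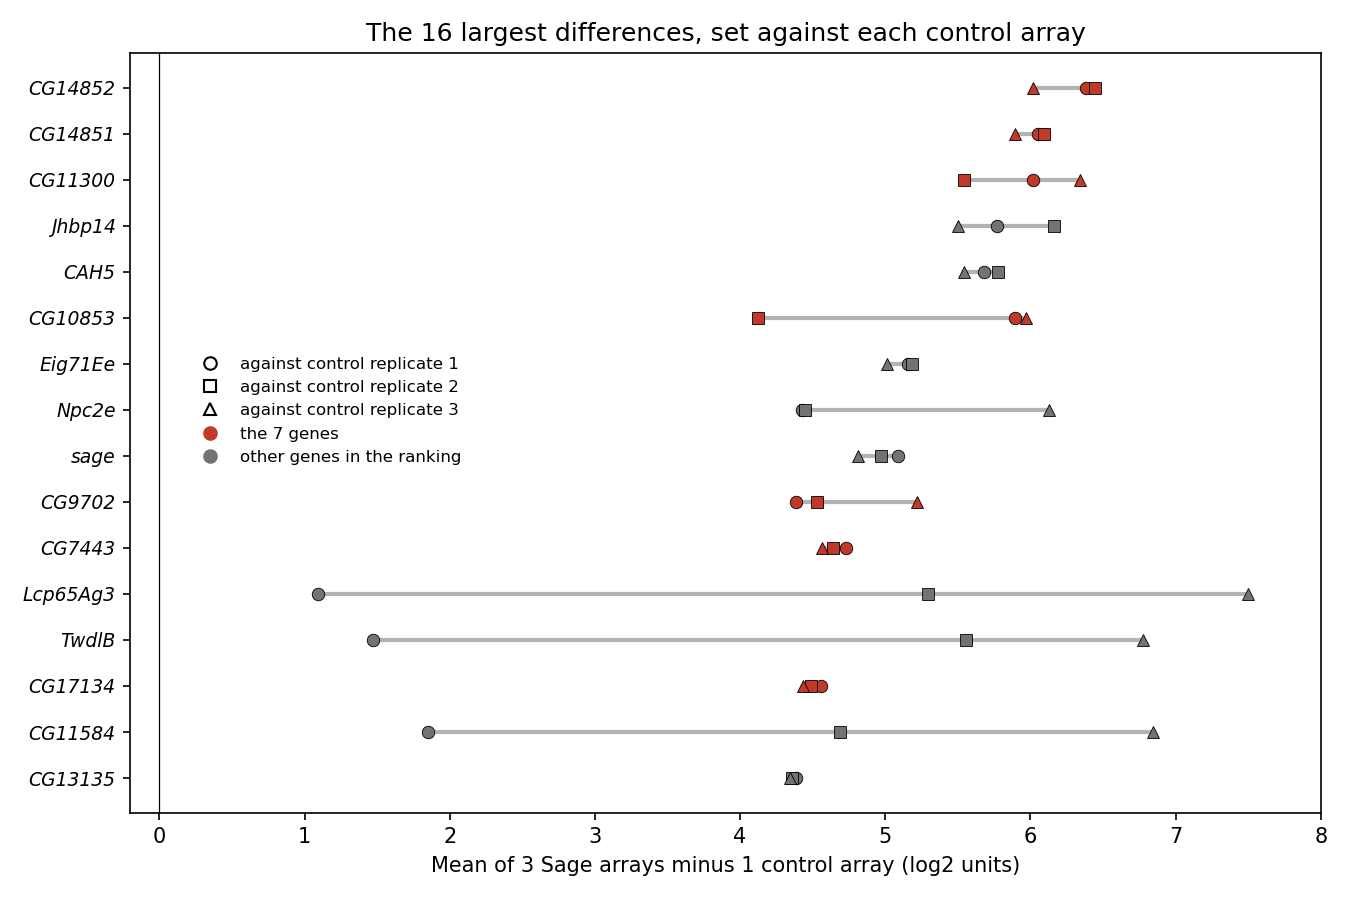
Mean log2 signal of the 3 Sage arrays minus that of a single control array (horizontal axis, log2 units) for the 16 probe sets with the largest differences that name 1 gene. Circles, squares and triangles use control replicates 1, 2 and 3, red marks the 7 genes and grey the others, and grey bars join the lowest and highest value. Lcp65Ag3, TwdlB and CG11584 lie between 1.09 and 1.85 against control replicate 1, where the 7 genes lie between 4.39 and 6.38.

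The same contrast was seen over a wider set of large differences. Of the probe sets that name 1 gene, 74 had a log2 difference of at least 3, and 40 of these had a Sage mean less than 2 log2 units above control replicate 1. None of the 7 genes was among those 40. Of the 74, 58 were highest in control replicate 1 among the controls and 52 were lowest in control replicate 3. The controls of 19 of the 74 lay within 1 log2 unit of each other, and 6 of the 7 genes were among these, the exception being CG10853 with a range of 1.84. Since the genes were chosen by this contrast, these counts describe them and support nothing about them.

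**Figure D3:**
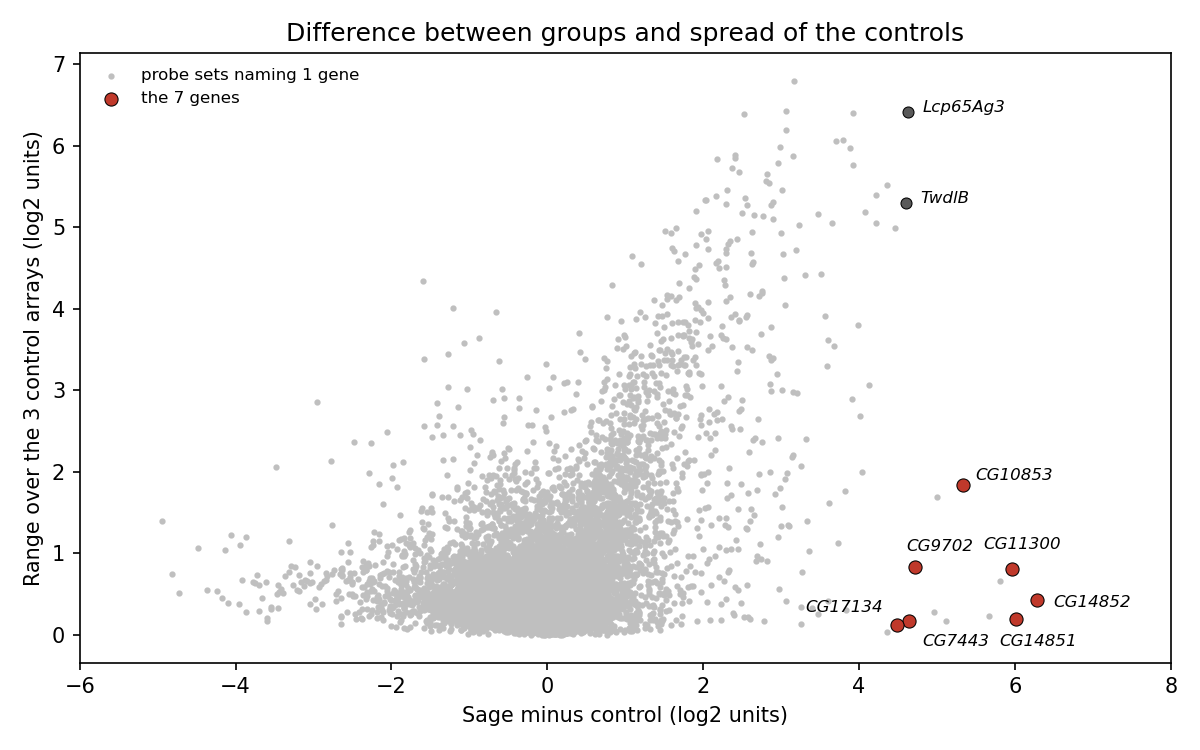
Range of log2 signal over the 3 control arrays (vertical axis) against the difference Sage minus control (horizontal axis, log2 units), 1 point per probe set that names 1 gene. Red points are the 7 genes, which combine differences of 4.49 to 6.28 with control ranges of 0.13 to 1.84, and the dark grey points are the cuticle genes TwdlB (5.30) and Lcp65Ag3 (6.41).

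Most genes next to the 7 on the chromosome did not pass the test, as was so for most probe sets (13.7% called in either direction). Counting 2 protein-coding genes on each side in RefSeq gene order gave 25 other genes, of which 19 had a probe set of their own. Among these 19, 1 rose, 1 fell and 17 did not pass, against 4.25% of all probe sets higher and 9.45% lower by limma. Their median log2 difference was 0.13, against 0.00032 over all probe sets. A further 3 genes were measured only on 2 probe sets shared with another gene, of which 1 rose. CG34155, Rpt6R and Arl2 had no probe set naming them.

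The gene that rose was CG8087, the one that lies between CG14851 and CG14852. It had log2 signals of 6.26, 6.38 and 6.30 on the Sage arrays, against 5.52, 5.46 and 5.67 on the control arrays. The groups did not overlap, and the difference of 0.76 (SE 0.09, adjusted p = 0.00411 by limma) was a 1.70-fold rise, a small fraction of that of the genes on either side of it. Beyond them, Jig (0.27, adjusted p = 0.112 by limma), CG14854 (-0.12, adjusted p = 0.423) and CG8066 (-0.06, adjusted p = 0.718) did not pass. CG31313, whose span overlaps that of CG14852, had 9.87, 10.09 and 9.89 on the Sage arrays, against 9.14, 9.45 and 10.10 on the control arrays. Its groups overlapped and it did not pass (difference 0.39, adjusted p = 0.402 by limma), although it did without control replicate 3 (0.66, adjusted p = 0.0255).

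Near CG11300, a shared probe set rose, and so did CG13560 farther out. Within 5 genes on each side, egl, CG18128, CG15800, CG30177 and CG13561 did not pass, with log2 differences of -0.04 to 0.48. CG34105 and CG12491, the 2 genes before it, share a probe set and cannot be told apart. That probe set had log2 signals of 8.79, 8.93 and 9.18 on the Sage arrays, against 6.57, 6.29 and 4.83 on the control arrays. It rose 8.40-fold (difference 3.07, SE 0.46, adjusted p = 0.00923 by limma), and it missed the threshold without Sage replicate 3 (2.96, adjusted p = 0.0525). Control replicate 3 was its lowest control by over 1 log2 unit, whereas for CG11300 the controls differed by at most 0.80. CG13560, the next gene out and one singled out after its values were seen, had 6.40, 6.74 and 6.79 on the Sage arrays, against 4.98, 5.01 and 4.78 on the control arrays. It rose 3.30-fold (difference 1.72, SE 0.14, adjusted p = 0.0014 by limma). On the other side, CG5532 did not pass (0.34, adjusted p = 0.101), nor did sona, which encodes a secreted metalloprotease. The sona difference of 1.99 (adjusted p = 0.267 by limma) came with controls of 9.35, 8.05 and 5.40.

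No measured neighbour of the other 4 genes within 2 genes rose past the threshold. CG7443 lies within the span of Poxm, a transcription factor gene of the muscle lineage, and CG17134 within that of Nos, the nitric oxide synthase gene. The host genes did not pass, with log2 differences of -0.05 (adjusted p = 0.883 by limma) for Poxm and 0.09 (adjusted p = 0.86) for Nos. CG10863, near CG10853, was the neighbour that fell. It had log2 signals of 9.39, 9.40 and 9.63 on the Sage arrays, against 10.85, 10.45 and 10.73 on the control arrays, a 2.31-fold fall (difference -1.21, SE 0.13, adjusted p = 0.00367 by limma). The genes on either side of CG10853, CG14982 (0.18, adjusted p = 0.321 by limma) and CG14983 (-0.08, adjusted p = 0.751), did not pass. With 5 genes on each side in place of 2, a window set after the data were seen, 47 neighbours had a probe set of their own. Of these, 2 rose, 1 fell and 44 did not pass, against 4.25% of all probe sets higher and 9.45% lower.

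**Figure D4:**
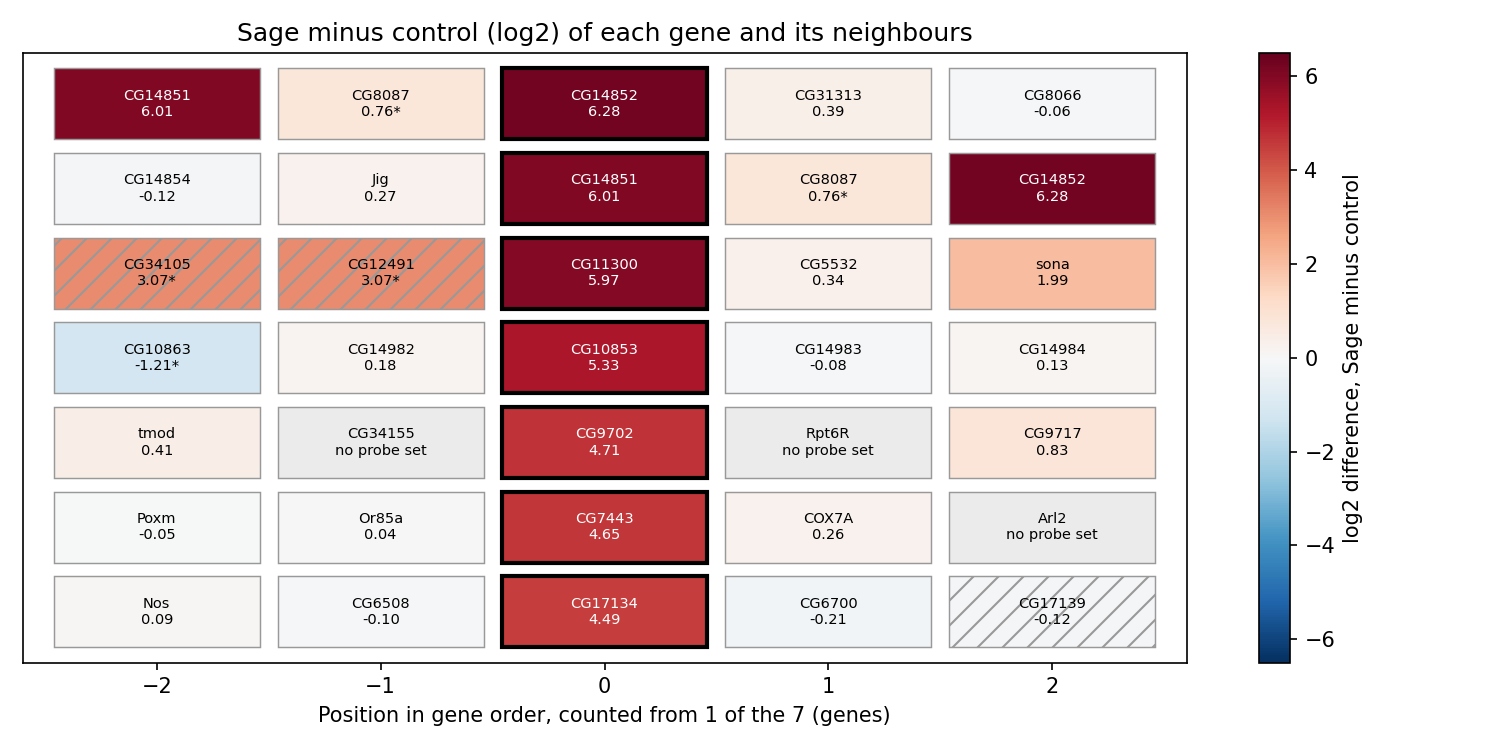
Log2 difference, Sage minus control, of each of the 7 genes (heavy frames, 1 row each) and of the 2 protein-coding genes on each side in gene order (horizontal axis, position in genes). Colour follows the printed difference, hatching marks a probe set shared with another gene, and an asterisk marks a neighbour with a limma adjusted p under 0.05. CG14851 and CG14852 appear in each other's rows, with CG8087 (0.76) between them.

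Of the relatives of CG17134 and CG9702, 1 rose past the threshold. Of 13 aspartic protease genes listed, 12 were measured. This list and that of the SLC26 genes were chosen with earlier results of these data known. Besides CG17134, Bace rose, cathD fell and 9 did not pass, against 4.25% of all probe sets higher and 9.45% lower. Without CG17134, the median log2 difference of the list was -0.01. CG6508, the aspartic protease gene next to CG17134, had 4.99, 4.84 and 4.92 on the Sage arrays, against 4.95, 4.997 and 5.09 on the control arrays, and its groups overlapped (difference -0.10, adjusted p = 0.542 by limma). cathD, the gene of the lysosomal protease cathepsin D, had 10.18, 10.32 and 10.18 on the Sage arrays, against 11.67, 11.56 and 11.68 on the control arrays. It fell 2.66-fold (difference -1.41, SE 0.08, adjusted p = 0.000912 by limma), and its RefSeq entry carries CG17134 as a synonym although the array measures each with a probe set of its own. Bace, a beta-secretase gene, had 6.84, 6.81 and 6.33 on the Sage arrays, against 5.93, 5.71 and 5.31 on the control arrays, and rose 2.02-fold (adjusted p = 0.0288 by limma). Bace missed the threshold without Sage replicate 1 or 2 or control replicate 2 (adjusted p = 0.105, 0.111 and 0.084).

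None of the other 8 SLC26 genes measured passed, against 13.7% of all probe sets in either direction, and their median log2 difference was 0.10. CG9717, which lies 2 genes from CG9702, had 6.27, 5.77 and 5.62 on the Sage arrays, against 5.59, 5.18 and 4.42 on the control arrays. The groups only just separated, and the difference of 0.83 did not pass (SE 0.33, adjusted p = 0.18 by limma). Esp had a difference of -1.01 (SE 0.43, adjusted p = 0.203 by limma), with controls of 9.03, 10.08 and 10.57, and it passed without control replicate 1 (-1.44, adjusted p = 0.0271).

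Some other genes of the salivary gland rose as well. Of 17 listed and measured, 7 rose, 1 fell and 9 did not pass, against 4.25% of all probe sets higher and 9.45% lower. The list was chosen with earlier results of these data known, so these counts describe it and are no test of salivary gland genes. The median log2 difference of the 17 was 0.05. Eig71Ee had log2 signals of 10.79, 10.17 and 10.53 on the Sage arrays, against 5.34, 5.31 and 5.48 on the control arrays. Sgs4, a glue protein gene, had 8.44, 7.46 and 8.08 on the Sage arrays, against 4.71, 4.68 and 4.81 on the control arrays, and rose 9.55-fold (adjusted p = 0.00131 by limma). The controls of each lay within 0.17 log2 units. The other 5 glue genes, Sgs1, Sgs3, Sgs5, Sgs7 and Sgs8, had differences of -0.05 to 0.05 and did not pass. Nor did crb (-0.37), 18w (-0.19), ng1 (0.01) and ng2 (0.08). The gene fog, whose secreted product triggers apical cell constriction, fell 1.77-fold (difference -0.82, SE 0.07, adjusted p = 0.00207 by limma). PH4alphaSG1 and PH4alphaSG2, named here after their values were seen, encode enzymes that hydroxylate prolines of secreted proteins. Their control signals were 8.40, 8.83 and 8.21 for PH4alphaSG1, and 8.82, 9.08 and 8.57 for PH4alphaSG2. PH4alphaSG1 and PH4alphaSG2 rose by 2.10 and 1.73 on the log2 scale (adjusted p = 0.0015 and 0.0028 by limma).

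Profiles most like those of the 7 were sought among all other genes, by the mean absolute difference in log2 signal from the median profile of the 7 over the 6 arrays. The 6 closest were CAH5 (0.17), Jhbp14 (0.20), Eig71Ee (0.43), CG13135 (0.69), CG16727 (0.95) and Cpr47Eg (0.96). The 7 genes themselves were 0.15 (CG14851) to 1.23 (CG11300) from their own median profile, so these 6 lay within the range of the 7. CG16727 rose 14.3-fold and Cpr47Eg, a cuticle protein gene, 14.1-fold (adjusted p = 6.02e-05 and 0.00729 by limma). The controls of Cpr47Eg had signals of 7.26, 5.59 and 5.50, with replicate 1 highest. CG13135 was 20.6-fold higher on this probe set, while a second one, at a log2 difference of 0.08, did not pass (adjusted p = 0.71).

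Some markers of embryo age and of other tissues also differed between the groups, and others varied mainly among the controls. The part of any of them in the values of the 7 genes was not tested. Over all probe sets, 4.25% were higher and 9.45% lower by limma. The lists below were chosen with earlier results of these data known, so their counts are descriptions. Of 22 late cuticle genes listed, 17 were measured, 3 rose and none fell (median log2 difference 0.88). Their summed linear signal was 25897 to 30412 on the Sage arrays, against 4436 to 17937 on the control arrays, the highest control being replicate 1. Of 13 maternal transcripts measured, 8 fell and none rose (median -3.91), with sums of 773 to 1279 on the Sage arrays, against 6438 to 11632 on the control arrays. Of 8 hemocyte genes, 3 rose and none fell (median 0.14), with sums of 8066 to 8475 on the Sage arrays, against 3485 to 4546 on the control arrays. The 3 that rose, PPO1, PPO2 and Pxn, had the highest signals of the 8 on the Sage arrays. Differences of the other 5 were -0.45 (srp), -0.11 (gcm), -0.08 (lz), 0.11 (crq) and 0.17 (Hml). Of 3 tracheal genes 1 rose and none fell (median 0.75), with sums of 7862 to 8352 on the Sage arrays, against 1740 to 6916 on the control arrays. Gasp had the highest signal of the 3 on every array and did not pass (adjusted p = 0.27 by limma), while btl had a difference of -0.26. Of 6 fat body and yolk genes 1 rose and none fell (median 0.05), with sums of 313 to 336 on the Sage arrays, against 231 to 256 on the control arrays. None of 8 muscle, 8 neuronal or 5 gut genes passed (medians 1.16, 0.58 and -0.05). Muscle sums were 30059 to 34382 on the Sage arrays, against 31109, 19161 and 5242 in control replicates 1, 2 and 3. Neuronal sums were 3477 to 4160 on the Sage arrays, against 3616, 3719 and 2828 in these controls. For gut genes they were 1346 to 1361, against 1148, 1042 and 620. The 7 genes, chosen by this contrast, had differences of at least 4.12 against any single control array, the smallest being that of CG10853 against control replicate 2. Those differences do not bear on the part of embryo age or tissue, which was not tested.

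Gene names limit what the ranking covers. Of all 18769 probe sets, 16 had a difference at least as large as that of CG17134, of which 14 named 1 gene, 1 named several and 1 named none. The probe set without a gene had the largest difference on the array, with log2 signals of 11.60, 11.85 and 11.81 on the Sage arrays, against 4.64, 4.46 and 4.79 on the control arrays. It was 139-fold higher with Sage (difference 7.12, SE 0.12, adjusted p = 1.8e-05 by limma). The one that named several was shared by the cuticle genes Cpr65Ax1 and Cpr65Ax2 (difference 4.93, adjusted p = 0.0493 by limma), with controls of 9.74, 5.73 and 5.20.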

How the data were processed

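Biotin-labelled RNA of 6 samples was hybridised to 1 array each. The deposited values are log2 signals per probe set, for which the submitters' processing notes name RMA and Partek, with no version. RMA equalises the arrays' distributions before probe sets are summarised, so a change in total RNA cannot show. The medians of the deposited values still differed, at 5.74, 5.70 and 5.73 on the Sage arrays, against 5.69, 5.64 and 5.56 on the control arrays. With each array centred on its median, limma called 589 probe sets higher and 1826 lower. The table held 18952 probe sets, and 18769 were tested after 183 controls were set aside. The platform annotation named 1 gene for 13647, several for 402 and none for 4903, the control probe sets included. Symbols of 13544 probe sets were updated by Entrez identifier to RefSeq Release 6, which also gave the gene order. A genome build for the array was not stated, and coordinates are left out. A gene with more than 1 probe set was represented by the one of highest mean over the 6 arrays.

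The test was limma 3.58.1 (lmFit and eBayes, R 4.3.3), Sage minus control, 3 arrays against 3, two-sided, without covariates, with Benjamini-Hochberg adjustment over all tested probe sets at 0.05. The number of arrays limits the precision. Tested on simulated data for this comparison (18769 probe sets), it recovered 28.4% of 1.5-fold, 63.0% of 2-fold and 82.3% of 4-fold changes, with 6 false calls among 124. The simulation drew noise for each probe set independently, without the differences that many probe sets share among the control arrays. Its rates may therefore not hold for these arrays. Figures were drawn with matplotlib 3.10.9.

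The 7 genes and the 11 gene lists (salivary gland, aspartic protease, SLC26, late cuticle, maternal, muscle, neuron, hemocyte, trachea, fat body and yolk, gut) were chosen with earlier results of these data known. In the SLC26 list, an older symbol was replaced by CG5002 after the files were read. The rule for named genes took the 7, sage, the 2 genes on each side, the closest profiles, the genes ranked among and just after the 7, and up to 4 genes per list with an adjusted p under 0.05 (otherwise the 2 with the largest difference). CG13560, PH4alphaSG1, PH4alphaSG2 and the shared cuticle probe set lie outside it and were named after their values were seen. A planned comparison of protein and promoter sequences was not done, as no sequences were used here. Alternatives were the replicate block, each array left out, quantile normalization, median centring, 2 filters on dim probe sets, a trended and robust prior, array weights, no moderation, the mean in place of the median, other probe sets of a gene and, chosen after seeing the data, each control array alone and array weights for the median of the 7.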

Additional observations from a re-analysis of the deposited data

Results flagged for a closer look

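A probe set to which the platform annotation gives no gene had a log2 difference of 7.12 between Sage and control arrays, larger than that of any named gene, in data that the comparison of named genes does not use. Hybridisation control RNAs, left out of every gene comparison, were higher on all 3 Sage arrays than on any control array, by 1.36 (BioB), 0.92 (BioC), 1.17 (BioDn) and 0.37 (CreX) log2 units. DapX, a control RNA that is not one of the hybridisation controls, was lower on every Sage array than on any control array (-0.62). Its signals were 5.28 to 5.55 on the Sage arrays, against 5.90 to 6.33 on the control arrays. These lay near the array medians of 5.56 to 5.74, so they may be background. The part of any of these in the values of the 7 genes was not tested. Groups of 3 arrays are too small for a test of single outlying arrays.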

How the results depend on the processing

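None of the 7 genes changed direction under the replicate block, each array left out, quantile normalization, median centring or array weights. Under these settings none moved by more than the larger SD of its 2 groups of arrays. Their median log2 difference of 5.33 ran from 5.01 (without control replicate 3) to 5.93 (without control replicate 2), through 5.04 without control replicate 1. In each of these fits the median was the value of CG10853, so its range is that of 1 gene. With single arrays left out, CG14851 ran from 5.91 to 6.08, CG9702 from 4.46 to 4.88 and CG7443 from 4.60 to 4.71. With array weights, an alternative for the median added after seeing the data, the median was 4.68, the value of CG7443. CG10853 then had 4.33 against 5.33, a move within its control SD of 1.04 but beyond its Sage SD of 0.29. Against single controls the median was 5.89 (replicate 1), 4.64 (replicate 2) and 5.89 (replicate 3).

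The counts over all probe sets, 797 higher and 1774 lower, ranged from 266 (without Sage replicate 3) to 1276 (without control replicate 1) for higher ones and from 934 (without Sage replicate 3) to 2035 for lower ones. Without Sage replicates 1 and 2 there were 446 and 369 higher and 1159 and 1178 lower, and without control replicate 2 there were 465 higher. They were 353 and 1026 without moderation, and 4869 and 4922 with array weights, a fit that stopped before it converged. The replicate block gave 341 higher and 1057 lower, and replicate numbers did not pair the samples (correlations of deviations of -0.13, -0.07 and -0.25). The cause of these shifts was not tested.

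Neighbours of the 7 that rose numbered 2 without control replicate 3 (1 to 2 over arrays left out) and 9 with array weights, against 1, and 1 fell in each array left out. Of 34 other named genes and probe sets, 4 lost a call in 8 fits in all, among them Bace, Cpr47Eg (adjusted p = 0.0525 without moderation) and the shared probe set of CG34105 and CG12491 (adjusted p = 0.0598 without moderation), and 9 gained one in 11. Differences changed sign in 9 genes, none of which had passed, among them sona (1.99) and tmod (0.41) on a second probe set. With single arrays left out, Nos ran from -0.12 to 0.22, Poxm from -0.13 to 0.079, CG14983 from -0.16 to 0.040, CG14984 from -0.063 to 0.27 and CG6700 from -0.45 to 0.11. Or85a had -0.0065 with quantile normalization and -0.054 with centring. Array weights gave 0.0033 for CG6700, 0.0058 for CG8066, -0.21 for Nos and 0.034 for Poxm, and second probe sets gave -0.094 for sona and -0.017 for tmod.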
